A study of Mus musculus with 20 samples.

Results

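The 9 genes described here are the clock output and secondary loop genes Nr1d1, Nr1d2, Rora, Dbp, Tef, Hlf, Nfil3, Bhlhe40 and Bhlhe41. They were taken by symbol from the 24421 genes counted in each library, for their role in the circadian clock. Earlier results of these data were known when they were chosen. All 9 were found and all 9 were among the 14030 genes that passed the filter on low counts. Poly(A) RNA of bone marrow neutrophils was sequenced from 20 female mice, 5 in each of 4 groups that combine the genotype (WT or Bmal1 Mye-/-) with no treatment or IMQ treatment. WT mice were C57BL/6J animals from The Jackson Laboratory and carried no Cre. Bmal1 Mye-/- mice were bred in-house from floxed Bmal1 mice and mice with Cre recombinase placed at Lyz2, a lysozyme gene of myeloid cells, so that deletion is directed to cells that express Lyz2 or did so earlier. Genotype, carriage of Cre and origin of the mice therefore cannot be told apart. IMQ is imiquimod, an agonist of Toll-like receptors that induces lupus-like disease, and was applied to the ears as a 5% cream 3 times per week for 6 weeks, from an age of 8 to 10 weeks and at about ZT 11 (zeitgeber time, hours after lights on). Mice were euthanized at ZT 1 to 4, and neutrophils were isolated by magnetic negative selection. With this one window of the day, a shift of the time at which a rhythmic gene peaks and a change of its mean level cannot be told apart.

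In the mammalian clock, BMAL1 and CLOCK form a heterodimer that binds E-box sequences and activates the genes of its own repressors and of many outputs. The nuclear receptors REV-ERB (encoded by Nr1d1 and Nr1d2) and ROR (Rora) compete for the same response elements in Bmal1 and other genes, the first as repressors and the second as an activator, and so form a secondary loop. DBP, TEF and HLF are activators of the PAR-bZIP family that bind D-box elements, NFIL3 is the repressor at those elements, and BHLHE40 and BHLHE41 (also DEC1 and DEC2) are repressors that occupy E-boxes. Several of these genes have further roles in leukocytes: NFIL3 and RORA are needed for innate lymphoid cell development, and HLF marks haematopoietic stem cells.

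Promoter windows of 3 of these genes hold an E-box (CACGTG) or its variant, the E'-box (CACGTT), and are shown here because Bmal1, the deleted gene, encodes a protein that binds these letters. RefSeq windows from 250 bases before to 50 bases after the start of transcription (GRCm38.p6) were matched for 8 of the 9 genes, all but Bhlhe40. Both strands were searched, and capitals mark the match, which on the reverse strand reads as the reverse complement. The windows are those of Nr1d1 (chr11:98775328-98775627, minus strand), Bhlhe41 (chr6:145865371-145865670, minus strand) and the pair of alternative starts of Tef (chr15:81802423-81802722 and chr15:81811164-81811463, plus strand).
Nr1d1: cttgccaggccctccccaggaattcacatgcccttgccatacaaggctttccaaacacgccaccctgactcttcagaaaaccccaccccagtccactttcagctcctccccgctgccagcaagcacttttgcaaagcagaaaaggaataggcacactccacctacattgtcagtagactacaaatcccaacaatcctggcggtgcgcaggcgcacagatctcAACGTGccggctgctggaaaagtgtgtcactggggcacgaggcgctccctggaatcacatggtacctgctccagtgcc
Bhlhe41: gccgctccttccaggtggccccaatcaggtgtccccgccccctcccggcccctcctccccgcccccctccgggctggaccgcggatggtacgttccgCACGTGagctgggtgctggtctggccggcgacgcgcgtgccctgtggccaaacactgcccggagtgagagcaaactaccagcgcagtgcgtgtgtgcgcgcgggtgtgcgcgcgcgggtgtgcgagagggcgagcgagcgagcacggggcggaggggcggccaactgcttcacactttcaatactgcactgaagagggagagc
Tef, upstream start: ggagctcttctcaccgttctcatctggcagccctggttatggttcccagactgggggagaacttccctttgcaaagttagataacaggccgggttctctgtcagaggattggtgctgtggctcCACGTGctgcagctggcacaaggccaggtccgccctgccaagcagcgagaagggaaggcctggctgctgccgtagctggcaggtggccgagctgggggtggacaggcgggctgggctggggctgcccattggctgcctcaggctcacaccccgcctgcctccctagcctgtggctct
Tef, downstream start: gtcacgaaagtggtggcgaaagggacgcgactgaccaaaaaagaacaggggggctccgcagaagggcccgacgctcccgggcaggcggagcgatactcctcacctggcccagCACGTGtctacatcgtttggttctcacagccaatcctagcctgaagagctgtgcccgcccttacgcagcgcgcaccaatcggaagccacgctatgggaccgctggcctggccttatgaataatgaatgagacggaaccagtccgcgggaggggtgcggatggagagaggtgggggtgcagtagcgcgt
The E'-box of Nr1d1 began 28 bases before the start site, the E-box of Bhlhe41 153 bases before it, and those of Tef 127 and 138 bases before their starts. Of all 32851 RefSeq windows of this length, 7.15% held CACGTG and 4.685% held CACGTT. The nuclear receptor half-site AGGTCA, present in 16.255% of windows, was found in those of Nr1d2 and Nfil3, 77 and 12 bases before the start. The windows of Dbp, Hlf and Rora held none of the 3 motifs. These matches describe letters in short windows only, and elements further from a start or within introns were not searched.

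Each library had between 30782166 and 92613500 reads on genes (median 66094896). Untreated Bmal1 Mye-/- replicate 3 was the shallowest. The share of reads that did not align uniquely was 4.37% to 6.5%, highest in IMQ-treated Bmal1 Mye-/- replicate 1 and IMQ-treated WT replicate 3, and these libraries also had the highest TMM factors (1.38 and 1.16), the scaling factors that edgeR applies to library size. Arntl, the symbol under which Bmal1 is listed, averaged 1.35 ± 0.322 CPM (counts per 1000000 reads on genes, with library sizes scaled by TMM factors, mean ± SD, n = 5) in untreated WT and 0.721 ± 0.24 in untreated Bmal1 Mye-/-, and 1.11 ± 0.474 against 0.702 ± 0.477 under IMQ. The ranges overlapped, and the difference averaged over treatment was -0.77 ± 0.27 on the log2 scale (SE, adjusted p = 0.363). Counts were per gene, so reads from the exons left after deletion were included. Lyz2, where Cre is placed, was 11408 ± 593 CPM in untreated WT against 135 ± 29.8 in untreated Bmal1 Mye-/-, and no library disagreed with its label by this gene. Of 6 defining neutrophil markers 5 were in the files, and their summed level was 31046 to 73024 CPM in all 20 libraries.

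The levels of the 9 genes in neutrophils spanned more than 3 orders of magnitude. Compared per kilobase of exon (GENCODE M21 exon lengths), the mean in untreated WT was highest for Nfil3, at 40.9 ± 7.78 CPM per kb, followed by Bhlhe40 at 8.17 ± 0.453 and Dbp at 1.39 ± 0.12. Nr1d1 (0.873 ± 0.227), Hlf (0.758 ± 0.0725) and Tef (0.495 ± 0.157) followed, then Nr1d2 (0.263 ± 0.0794), Bhlhe41 (0.182 ± 0.124) and Rora (0.0205 ± 0.0124 CPM per kb). Neighbours in this order from Nr1d1 to Bhlhe41 overlapped in their ranges over libraries, whereas Nfil3, Bhlhe40, Dbp and Rora were each separate from their neighbours. In the other 3 groups Nfil3 and Bhlhe40 again ranked first and second without overlap, and Rora ranked last, there overlapping with Bhlhe41. Under IMQ the range of Dbp overlapped with that of Hlf in both genotypes. Thus the repressors Nfil3 and Bhlhe40 were the abundant transcripts of this set, and the rest rested on few reads: Rora had 3 to 84 counts per library, Bhlhe41 4 to 204, Nr1d2 8 to 155 and Nr1d1 38 to 241.

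**Figure D1:**
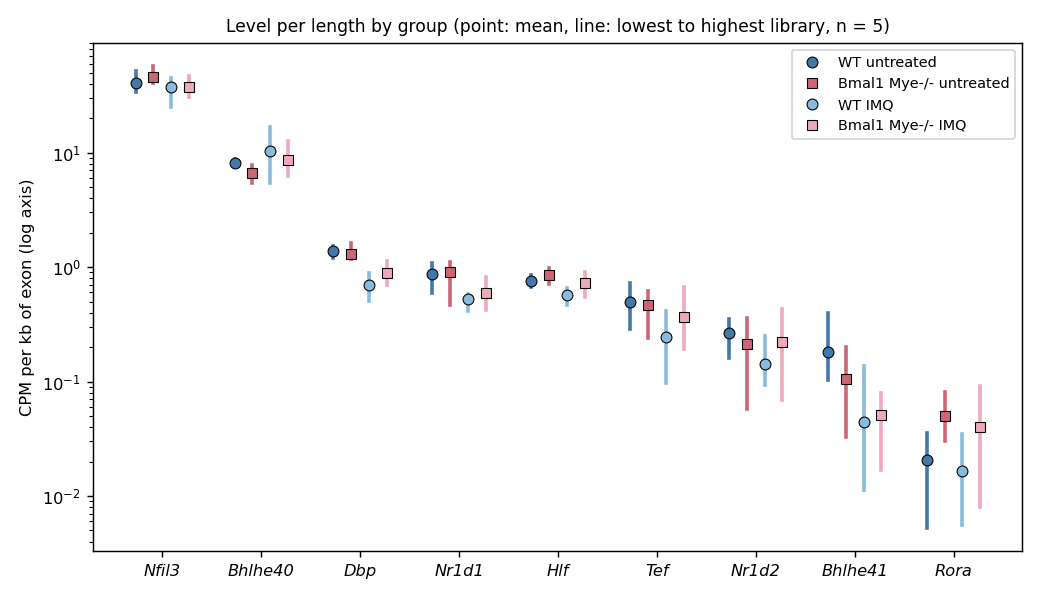
Mean level per kilobase of exon (CPM per kb, log axis) of the 9 genes in the 4 groups. Points are means, lines run from the lowest to the highest of 5 libraries. Nfil3 and Bhlhe40 lie above all others, from 40.9 and 8.17 CPM per kb in untreated WT down to 0.0205 for Rora.

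On the mm10 build the nuclear receptor genes lie at chr11:98767932-98775333 (Nr1d1), chr14:18204054-18239127 (Nr1d2) and chr9:68653786-69388246 (Rora). The bZIP genes lie at chr7:45705088-45710203 (Dbp), chr15:81802421-81826863 (Tef), chr11:90336536-90390895 (Hlf) and chr13:52967209-52981073 (Nfil3), and the bHLH genes at chr6:108660629-108666925 (Bhlhe40) and chr6:145858243-145865558 (Bhlhe41). All are protein-coding. The lengths used here cover all exons annotated in GENCODE M21, untranslated regions included. Which parts of a gene were counted is not given in the sources used here. Some share exon sequence with a gene on the opposite strand, and the strand setting of the counting is not given in the sources used here. Dbp shares 539 exon bases, 29.34% of its own, with Sphk2, and Nr1d1 shares 263, or 9.67%, with Thra. Bhlhe41 shares 13.65% with the unclassified transcript Gm43909, and the other overlaps cover 0.73% to 4.1% of Rora, Tef and Bhlhe40.

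To ask how IMQ treatment bore on these genes, IMQ-treated mice were compared with untreated mice within each genotype and averaged over both. Averaged over genotype, 4 of the 9 genes fell and none rose at an adjusted p under 0.05, against 32.7% of all genes tested that passed in either direction and 14% that fell. The genes that fell were Nr1d1, Dbp, Hlf and Bhlhe41. Of the other 5, Tef, Nfil3, Nr1d2 and Rora had negative log2 fold changes and Bhlhe40 a positive one. The median log2 fold change of the 9 was -0.43, beside 0.02 over all genes tested. In WT alone 1 of 9 fell, Dbp, against 3.95% of genes in either direction and 1.6% lower, and by DESeq2 Nr1d1, Hlf and Bhlhe41 fell as well, 4 of 9 against 10.6% of genes in either direction and 4.85% lower. The treated WT libraries were all below the untreated ones for 3 of 9 genes, Nr1d1, Dbp and Hlf, against 3.31% of genes, and in Bmal1 Mye-/- for 1, Dbp, against 9.31%. These separations depend on the scaling: in CPM without TMM factors they held for Dbp alone in WT (4.39% of genes) and for 0 of 9 in Bmal1 Mye-/- (7.48%). In Bmal1 Mye-/- alone 0 of 9 passed by edgeR, against 23.5% of genes in either direction. At an unadjusted p under 0.05, 2 of 9 were lower there, Nr1d1 and Dbp (39.3% of genes passed so in either direction), and DESeq2 called both, beside 31.1% of genes.

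**Figure D2:**
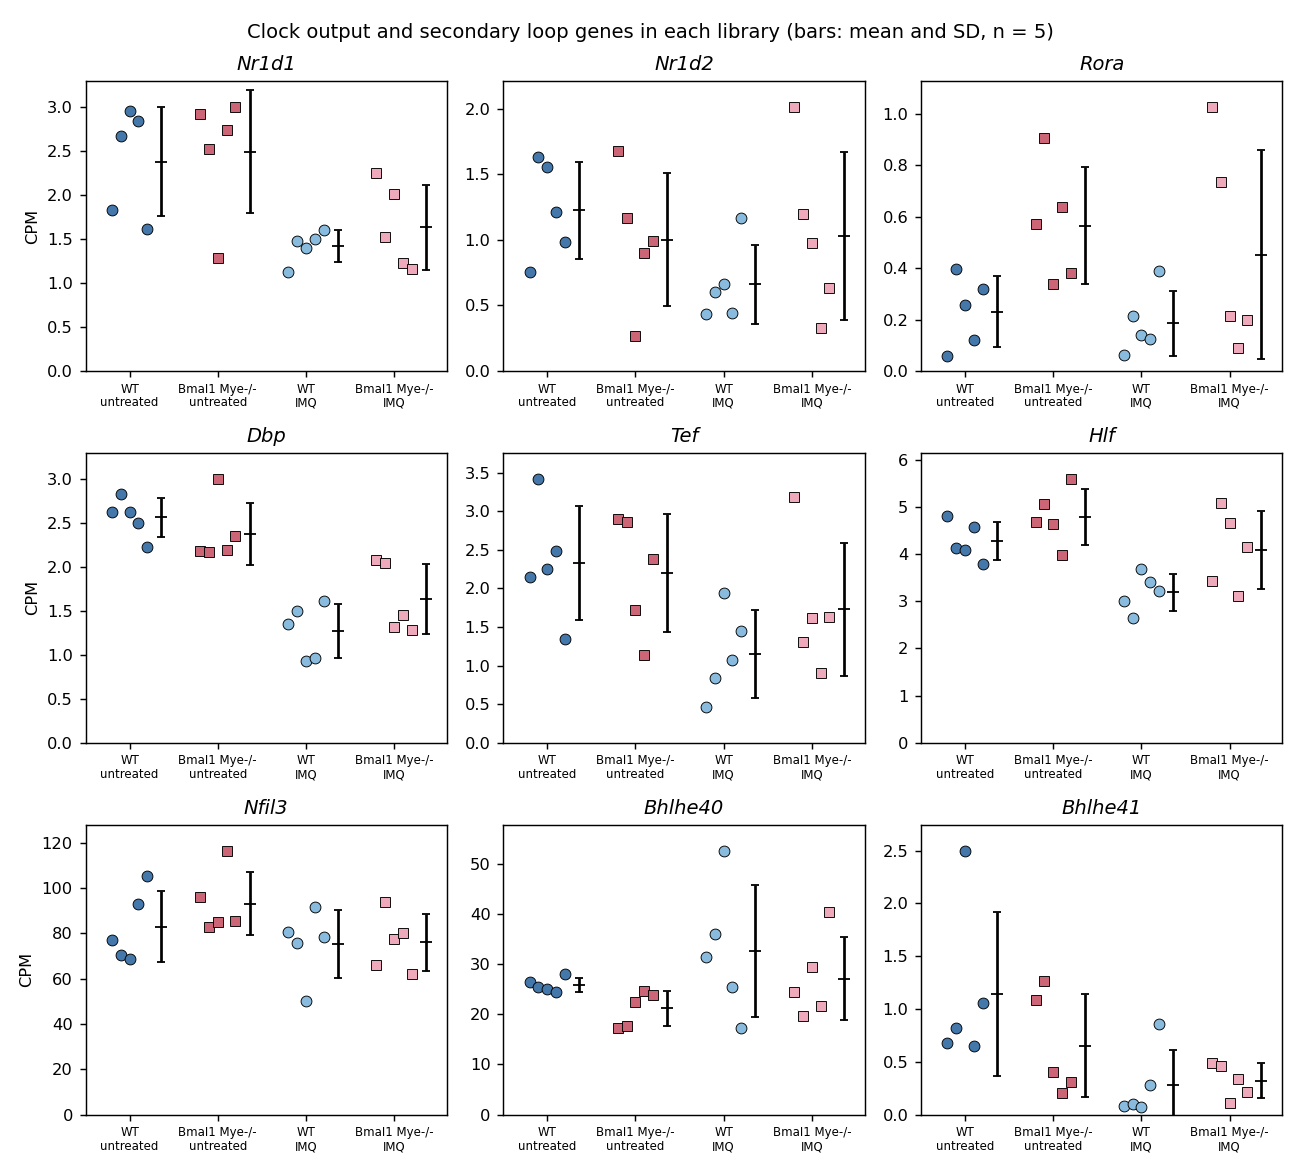
CPM of each gene (y axes start at 0) in the 5 libraries of each group, in order of replicate number, with mean and SD at the right. Every IMQ-treated library lies below every untreated library for Dbp, which does not hold without the TMM factors used here. Bhlhe41 is at most 0.493 CPM in 9 of the 10 IMQ-treated libraries and 0.855 CPM in the other.

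Among the nuclear receptors, Nr1d1 (REV-ERBα) was 1.82, 2.66, 2.95, 2.84 and 1.61 CPM in untreated WT and 1.12, 1.48, 1.4, 1.5 and 1.6 CPM in IMQ-treated WT. All 5 treated WT libraries were below all untreated ones, by a small margin that was lost in CPM without TMM factors. Nr1d1 in Bmal1 Mye-/- was 2.92, 2.51, 1.28, 2.73 and 2.99 CPM untreated and 2.24, 1.52, 2.01, 1.22 and 1.16 CPM under IMQ. Here the groups overlapped through untreated replicate 3, the shallowest library, where the gene had 38 counts. The log2 fold change was -0.74 ± 0.25 in WT (SE, adjusted p = 0.0921), -0.62 ± 0.25 in Bmal1 Mye-/- (adjusted p = 0.0791) and -0.68 ± 0.18 averaged over genotype (adjusted p = 0.00823), a fall by 37.5%. Without untreated Bmal1 Mye-/- replicate 3 the fall in Bmal1 Mye-/- passed (log2 fold change -0.75, adjusted p = 0.0338). Thra, the opposite-strand neighbour, also fell, by 0.41 on the log2 scale averaged over genotype (adjusted p = 0.00662), and how far shared exon bases contribute was not tested.

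Nr1d2 (REV-ERBβ), the paralog of Nr1d1, was 0.756, 1.63, 1.55, 1.21 and 0.985 CPM in untreated WT and 0.437, 0.602, 0.665, 0.44 and 1.17 CPM under IMQ. Treated replicate 5 was inside the untreated range and the other 4 below it. The Bmal1 Mye-/- range was 0.269 to 1.68 CPM untreated and 0.324 to 2.01 under IMQ, and the groups overlapped almost throughout. The log2 fold changes of -0.89 ± 0.45 in WT (adjusted p = 0.261) and 0.02 ± 0.45 in Bmal1 Mye-/- (adjusted p = 0.979) did not pass. Rora, the activator of the pair of receptor types, did not separate by treatment in either genotype. In WT every treated library was within the untreated range, and in Bmal1 Mye-/- 3 were below it and 1 above. The log2 fold change of Rora averaged over genotype was -0.32 with a 95% interval of -1.24 to 0.60.

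Dbp, the albumin D-box binding protein and a common readout of clock output, showed the most separated values. It was 2.62, 2.83, 2.62, 2.5 and 2.23 CPM in untreated WT and 1.35, 1.5, 0.927, 0.969 and 1.62 CPM in IMQ-treated WT. In Bmal1 Mye-/- it was 2.18, 2.17, 3.00, 2.19 and 2.35 CPM untreated and 2.08, 2.05, 1.31, 1.45 and 1.28 CPM under IMQ. Each of the 10 treated libraries was below each of the 10 untreated ones, which held for 0.328% of all genes tested, and Dbp was the one member with this separation. It was lost without TMM factors, where IMQ-treated Bmal1 Mye-/- replicate 1, the library with the highest factor, was at 2.86 CPM and replicate 2 at 2.12, inside the untreated range of 2.08 to 2.92. With library sizes alone the log2 fold change averaged over genotype was -0.73 (adjusted p = 0.00419), and in Bmal1 Mye-/- it was -0.38 (adjusted p = 0.227). The log2 fold change was -1.01 ± 0.20 in WT (adjusted p = 0.0164), which is 2.01-fold lower, and -0.54 ± 0.20 in Bmal1 Mye-/- (adjusted p = 0.0565), and averaged over genotype Dbp fell by 0.77 ± 0.14 (adjusted p = 0.000992). The WT call was lost without untreated WT replicate 2 (log2 fold change -0.98, adjusted p = 0.0519), whereas the Bmal1 Mye-/- fall passed in 3 of the 20 fits that left out one library. Sphk2, on the opposite strand, had a log2 fold change of 0.08 (adjusted p = 0.593).

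Tef (thyrotroph embryonic factor), whose 2 promoter windows both hold an E-box, was 2.15, 3.41, 2.25, 2.49 and 1.35 CPM in untreated WT and 0.458, 0.835, 1.94, 1.07 and 1.45 CPM under IMQ. Replicates 3 and 5 of the treated WT mice lay within the untreated range. Tef in Bmal1 Mye-/- was 2.9, 2.86, 1.72, 1.14 and 2.38 CPM untreated and 3.18, 1.31, 1.62, 0.909 and 1.63 CPM under IMQ, with overlap. Averaged over genotype the log2 fold change of -0.68 ± 0.27 missed the threshold (adjusted p = 0.0569), and it passed with DESeq2 (adjusted p = 0.0242, where 36.8% of genes passed), with RLE factors, with at least 10 counts in every library and in 4 of 20 fits without one library.

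Hlf (hepatic leukemia factor) was 4.82, 4.14, 4.09, 4.57 and 3.79 CPM in untreated WT and 2.99, 2.64, 3.69, 3.4 and 3.21 CPM in IMQ-treated WT, again without overlap with TMM factors and with overlap without them. The Bmal1 Mye-/- values of 4.67, 5.05, 4.64, 3.99 and 5.59 CPM untreated and 3.43, 5.08, 4.67, 3.12 and 4.16 CPM under IMQ overlapped. The log2 fold change averaged over genotype was -0.33 ± 0.11 (adjusted p = 0.028), the smallest of the 4 falls that passed. It did not pass with library sizes alone (adjusted p = 0.102), without the filter on low counts (adjusted p = 0.0529), with the analysis of variance (adjusted p = 0.0656) or in 6 of the 20 fits without one library (untreated WT replicates 1 and 4, untreated Bmal1 Mye-/- replicate 5, IMQ-treated WT replicates 1 and 2 and IMQ-treated Bmal1 Mye-/- replicate 4). Nfil3, the repressor that opposes these activators, ranged from 50.3 to 116 CPM over the 20 libraries, and its log2 fold change of -0.22 ± 0.11 did not pass (adjusted p = 0.143).

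Of the bHLH repressors, Bhlhe41 (DEC2) was 0.682, 0.822, 2.5, 0.652 and 1.06 CPM in untreated WT and 0.0832, 0.0971, 0.07, 0.282 and 0.855 CPM in IMQ-treated WT. Treated replicate 5 stood above the other 4 and inside the untreated range, and untreated replicate 3 was the highest of the 20 libraries. Bhlhe41 in Bmal1 Mye-/- was 1.08, 1.26, 0.404, 0.206 and 0.306 CPM untreated and 0.493, 0.46, 0.106, 0.337 and 0.211 CPM under IMQ. Averaged over genotype Bhlhe41 fell by 1.54 ± 0.48 on the log2 scale (adjusted p = 0.0199), which is 2.9-fold with a wide 95% interval for the log2 fold change, from -2.53 to -0.54. In WT the log2 fold change was -2.03 ± 0.68 (adjusted p = 0.0892), and without treated replicate 5 it was -3.07 and passed (adjusted p = 0.0069).

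Bhlhe40 (DEC1), the paralog expressed at a higher level, went the other way in its estimates. It was 24.4 to 28.1 CPM in untreated WT and 17.3 to 52.6 CPM in IMQ-treated WT, highest in replicate 3 and lowest in replicate 5. In Bmal1 Mye-/- it ranged from 17.2 to 24.7 CPM untreated and from 19.7 to 40.3 under IMQ. The spread over mice widened from an SD of 1.43 CPM in untreated WT to 13.2 in IMQ-treated WT, which was not tested. Averaged over genotype the log2 fold change of 0.35 ± 0.16 did not pass (adjusted p = 0.105), and it passed without IMQ-treated WT replicate 5 (log2 fold change 0.43, adjusted p = 0.0214).

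**Figure D3:**
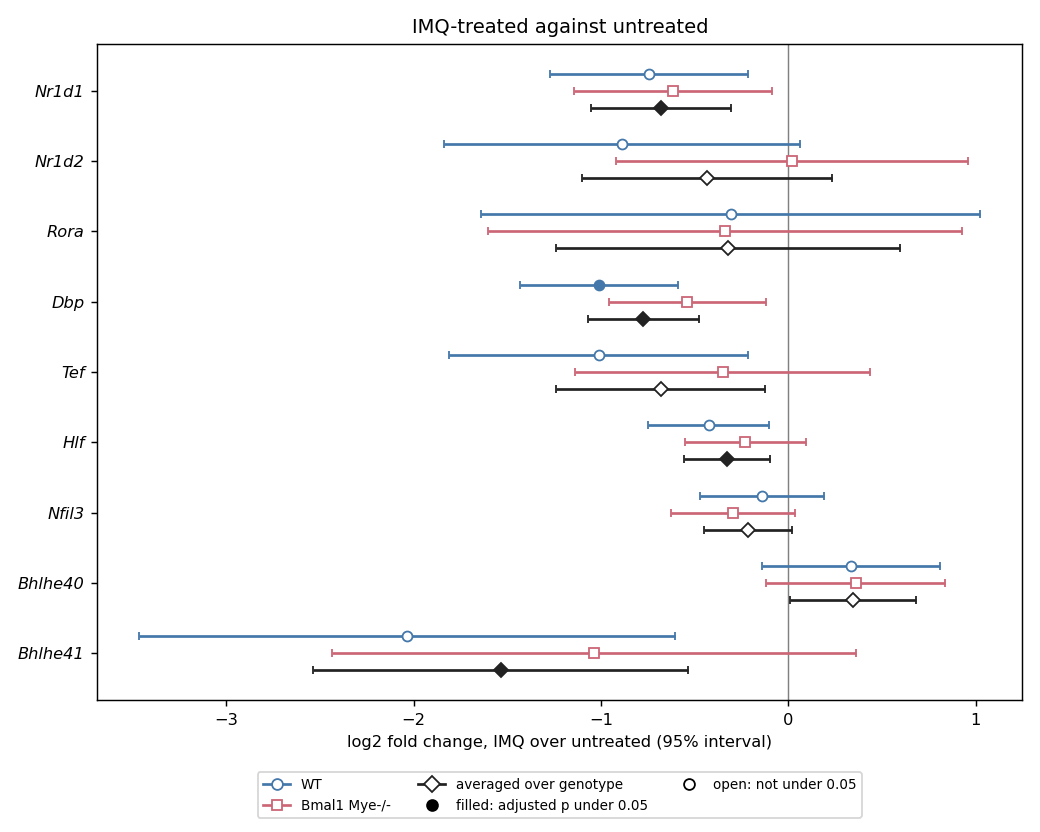
Log2 fold change of IMQ-treated over untreated libraries with its 95% interval, in WT (circles), Bmal1 Mye-/- (squares) and averaged over genotype (diamonds). Filled symbols passed an adjusted p of 0.05. Nr1d1, Dbp, Hlf and Bhlhe41 are filled for the average, and Dbp also for WT.

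Other clock genes were read in the same contrast, averaged over genotype. There 32.7% of the 14030 genes tested passed, 2618 higher and 1965 (14%) lower. The counts of the lists below stand beside this share and were not tested against it. Of the 11 core clock genes 9 were tested, and Per2, a repressor of the core loop, fell by 0.46 ± 0.15 on the log2 scale (adjusted p = 0.0236) while Clock rose by 0.49 ± 0.18 (adjusted p = 0.0491). Arntl itself had a log2 fold change of -0.15 ± 0.27 (adjusted p = 0.694). Among 9 clock modifiers tested, Btrc and Ciart fell and Nono rose. Of 14 other clock-controlled genes 5 rose and 3 fell. Usp2, a deubiquitinase, and Klf9, a glucocorticoid-responsive factor, rose by 1.22 ± 0.20 and 1.77 ± 0.35, opposite to Dbp and Nr1d1, and Wee1 and Lonrf3 rose too. Of 10 glucocorticoid-induced genes 3 rose, among them Klf9 and Cdkn1a, and 1 fell, Zbtb16. The median log2 fold change of the 14 clock-controlled genes, which include Per2 and Ciart, was -0.04.

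Markers of other cells moved in the same comparison, where 1965 of the 14030 genes tested (14%) fell and 2618 rose. In bulk RNA, fewer cells of a type and less RNA per cell cannot be told apart. Of the 6 B lineage genes tested 5 fell, with a summed level of 9.25 to 24.6 CPM in untreated WT, 4.71 to 9.38 in IMQ-treated WT, 6.43 to 25.4 in untreated Bmal1 Mye-/- and 5.18 to 8.24 in IMQ-treated Bmal1 Mye-/-. Of 7 T, NK and innate lymphoid genes 3 fell (summed level 23.5 to 31.2 and 22.8 to 30.5 CPM untreated, 12.7 to 23.7 and 12 to 24.5 under IMQ, WT and Bmal1 Mye-/- in turn). Of 6 stem and progenitor genes tested 1 fell, Kit, and the summed level of the 8 listed was 22.8 to 38.6 and 24.1 to 32.8 CPM untreated, 13.1 to 31.4 and 14.1 to 28.8 under IMQ. Of 11 mature neutrophil genes 3 fell, Ccl6, Il1b and Csf3r (30423 to 38084 and 30552 to 36842 CPM untreated, 13350 to 38457 and 8269 to 29627 under IMQ). Monocyte genes rose in 3 of 8, macrophage genes in 4 of 7 and erythroid genes in 2 of 5. Eosinophil genes fell in 2 of 8, immature neutrophil genes rose in 1 and fell in 1 of 11, and basophil and mast cell genes passed in 0 of 6. Median summed levels, untreated and then under IMQ, did not all follow these counts. For macrophage genes they were 53.1 and 43.5 CPM in WT, 60.0 and 46.2 in Bmal1 Mye-/-. Monocyte genes had 284 and 287 in WT, 327 and 277 in Bmal1 Mye-/-. Erythroid genes had 70.3 and 103 in WT, 55.8 and 76.6 in Bmal1 Mye-/-. The eosinophil genes went opposite ways, 83.2 and 35.6 in WT but 84.3 and 122 in Bmal1 Mye-/-. No lymphoid, stem cell or neutrophil marker counted here was at 0 in every library of a group. The part of these cells in the falls of the 9 genes was not tested.

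Whether loss of Bmal1 in myeloid cells altered these genes was addressed by the genotype comparisons. None of the 9 passed in untreated mice (0.207% of genes tested did), under IMQ (0.292%) or averaged over treatment (0.314%) by edgeR, and DESeq2 called 0 of 9 in each as well (0.272%, 2.22% and 0.729% of genes). At an unadjusted p under 0.05, Rora was higher in Bmal1 Mye-/- in untreated mice (2.19% of genes passed so), Hlf under IMQ (19.9%) and both on average (11.3%). Without IMQ-treated WT replicate 3 the number of all genes called under IMQ went from 41 to 3129, and still 0 of the 9 passed. The intervals bound the size of what could have been missed at ZT 1 to 4 only, and other hours were not sampled. Arntl itself averaged 0.721 CPM in untreated Bmal1 Mye-/- against 1.35 in WT, and 0.702 against 1.11 under IMQ. For Dbp, a direct BMAL1 target in other tissues, the log2 fold change averaged over treatment was 0.12 with a 95% interval of -0.17 to 0.42, and for Nr1d1, another such target, it was 0.13 with an interval of -0.24 to 0.51. For the average, a fall of Dbp or Nr1d1 by more than 0.17 or 0.24 on the log2 scale lay outside these intervals. The average of Dbp joins estimates of opposite sign, -0.11 in untreated mice (-0.53 to 0.30) and 0.36 under IMQ (-0.06 to 0.78). Nr1d1 was at 0.07 in untreated mice (-0.45 to 0.59) and 0.20 under IMQ (-0.33 to 0.73). Sphk2, which shares 29.34% of the Dbp exon bases, was at -0.37 averaged over treatment (adjusted p = 0.301) and -0.42 under IMQ (adjusted p = 0.206). In untreated WT Sphk2 averaged 91.8 CPM against 2.56 for Dbp. How far shared exon bases contribute to the Dbp estimates was not tested. Under IMQ 8 of the 9 estimates were above 0 with a median of 0.36, and in untreated mice 4 of 9 with a median of -0.08. Nfil3 was among the 8 at only 0.01. Of all 14030 genes tested, 7456 were above 0 under IMQ (median 0.03) and 6830 in untreated mice (median -0.004).

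For Tef and Bhlhe41, the genes with CACGTG in their promoter windows, the intervals were wider than those of Dbp and Nr1d1. Tef was 0.25 higher on the log2 scale in Bmal1 Mye-/- averaged over treatment, with a 95% interval of -0.30 to 0.81, and Bhlhe41 was at -0.29 with an interval of -1.28 to 0.70. Bhlhe40, for which no window was matched, was at -0.28 (-0.61 to 0.06). Nfil3 and Nr1d2, whose windows held neither E-box nor E'-box, were at 0.09 (-0.14 to 0.32) and 0.18 (-0.49 to 0.84). The median over the 9 genes was 0.13, and 7 of 9 were above 0. Over all 14030 genes tested the median was 0.01, and 7212 were above 0.

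Rora had the largest genotype estimate of the 9. It was 0.0593, 0.397, 0.257, 0.121 and 0.318 CPM in untreated WT and 0.57, 0.907, 0.337, 0.636 and 0.379 CPM in untreated Bmal1 Mye-/-. Under IMQ it was 0.0624, 0.214, 0.14, 0.123 and 0.39 CPM in WT and 1.02, 0.736, 0.213, 0.0909 and 0.197 CPM in Bmal1 Mye-/-. Of the 10 Bmal1 Mye-/- libraries 5 were above all WT libraries, and the rest overlapped. The log2 fold change averaged over treatment was 1.28 ± 0.44 (adjusted p = 0.358), which fails the correction. Without IMQ-treated Bmal1 Mye-/- replicate 1, the library with the highest value, it was 1.00. Hlf was at 0.26 (95% interval 0.03 to 0.49, adjusted p = 0.413).

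Markers of other cells also differed in their estimates between the genotypes. Under IMQ the median log2 fold change of Bmal1 Mye-/- over WT was 1.57 for 8 monocyte genes, 7 above 0 and 1 below. It was 1.11 for 11 immature neutrophil genes, 8 above 0 and 3 below. For 11 mature neutrophil genes it was -0.66, all 11 of them below 0, beside 0.03 over all genes tested. None of these genes passed, while 3 of 8 eosinophil genes were called higher, beside 0.292% of all genes tested in either direction. The summed level of the monocyte genes was 183 to 429 CPM in IMQ-treated WT and 122 to 1720 in IMQ-treated Bmal1 Mye-/-. Averaged over treatment, the median was 0.52 for 7 T, NK and innate lymphoid genes, of which 4 were above 0 and 3 below. It was 0.50 for 6 stem and progenitor genes, 5 above 0 and 1 below. Larger medians were those of the monocyte (0.95), basophil and mast cell (0.93) and eosinophil genes (0.75). Those of the mature neutrophil (-0.35) and erythroid genes (-0.42) were below 0. None of the genes of these lists passed. In untreated mice Rora was at 1.30 and Hlf at 0.16. The T, NK and innate lymphoid median was 0.03 there and the stem and progenitor median 0.40. The part of these cells in the estimates of Rora and Hlf was not tested.

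**Figure D4:**
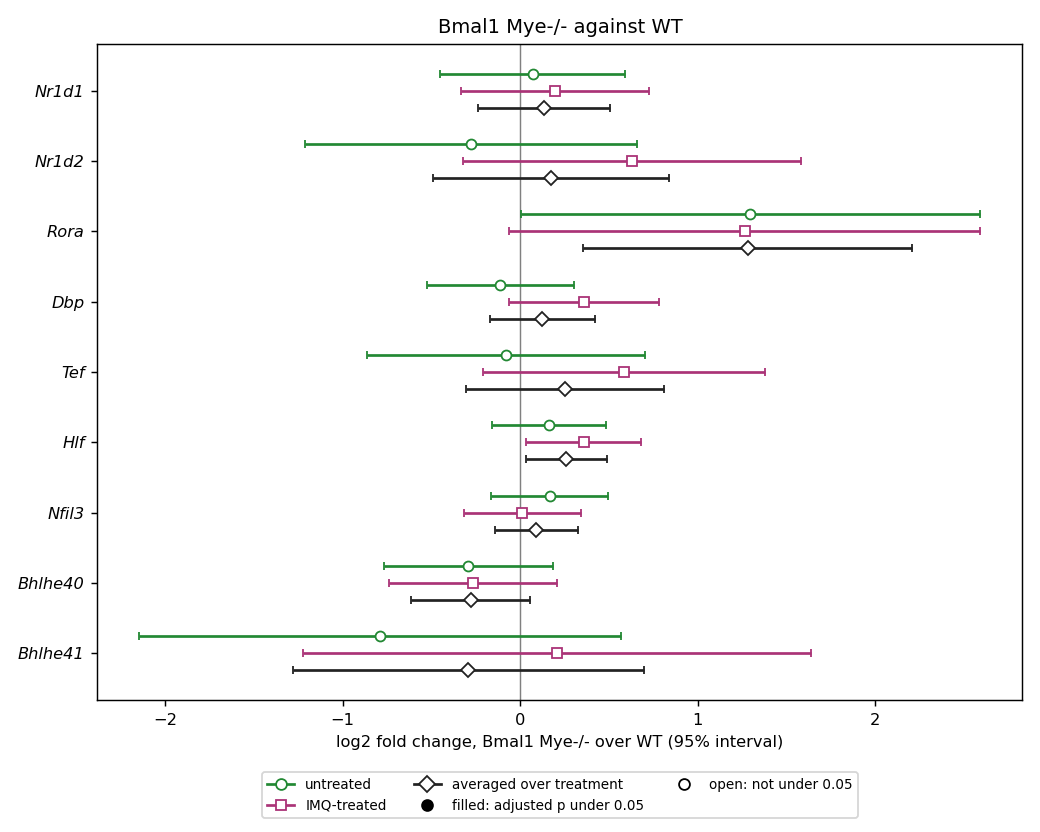
Log2 fold change of Bmal1 Mye-/- over WT libraries with its 95% interval, in untreated mice (circles), IMQ-treated mice (squares) and averaged over treatment (diamonds). All symbols are open, as none of the 9 genes passed an adjusted p of 0.05, and the interval averaged over treatment includes 0 for all but Rora and Hlf.

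The question whether the response to IMQ differed between the genotypes was tested as the interaction. By edgeR 0 of the 9 genes and 0 of all genes passed (DESeq2 also 0), and 5.14% of genes had an unadjusted p under 0.05, none of them among the 9. The difference of the log2 fold changes of Dbp, Bmal1 Mye-/- minus WT, was 0.47 with a 95% interval of -0.12 to 1.06, and that of Nr1d1 was 0.13 (-0.62 to 0.87). For Tef it was 0.66 (-0.45 to 1.78), for Nr1d2 0.91 (-0.43 to 2.24) and for Bhlhe41 0.99 (-0.98 to 2.97). The call of Dbp in WT and not in Bmal1 Mye-/- is therefore not shown to be a difference between the genotypes.

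Co-variation between mice within groups was examined for the 36 pairs of the 9 genes, on log2 CPM centred on the mean of each group (n = 20 libraries, two-sided permutation test within groups, adjusted by Benjamini-Hochberg over the 36 pairs). This test treats the 20 libraries as independent. When same-numbered untreated and IMQ-treated Bmal1 Mye-/- libraries were permuted together, 3 pairs again passed, and the adjusted p of Bhlhe40 and Bhlhe41, the highest of the 3, was 0.021. In 3 pairs the adjusted p was under 0.05. The paralogs Nr1d1 and Nr1d2 rose and fell together, with r = 0.82 (rho = 0.70, permutation p = 0.00034 and 0.00262, adjusted 0.00612 and 0.0236). The correlation was positive in each of the 4 groups, from 0.63 in IMQ-treated WT to 0.93 in untreated Bmal1 Mye-/-, and r was 0.77 without the 2 libraries farthest from the median of Nr1d1. Nr1d2 and its competitor Rora had r = 0.77 (rho = 0.79, permutation p = 0.00019 and 0.00036, adjusted 0.00612 and 0.00954). It too was positive in every group, from 0.62 to 0.93, and remained at 0.76 without the 2 libraries farthest from the median of Nr1d2.

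The third pair, the paralogs Bhlhe40 and Bhlhe41, ran in opposite directions, with r = -0.77 (rho = -0.79, permutation p = 0.00056 and 0.00053, adjusted 0.00672 and 0.00954). Mice with more Bhlhe40 had less Bhlhe41, most clearly in untreated Bmal1 Mye-/- (r = -0.99) and IMQ-treated WT (r = -0.92), while r was -0.04 in untreated WT. Without the 2 libraries farthest from the median of Bhlhe40, both IMQ-treated WT, r was -0.66. The adjusted p was 0.139 without TMM factors (r = -0.55) and 0.0572 without IMQ-treated WT replicate 5. Dbp, which fell most regularly with IMQ, showed no common relation to Nr1d1 between mice, with r = 0.02 (rho = 0.13, permutation p = 0.927 and 0.573, adjusted 0.949 and 0.798), and between Dbp and Tef r was likewise 0.02. The groups differed for Dbp and Nr1d1: r was 0.61 in untreated WT, -0.92 in untreated Bmal1 Mye-/-, 0.07 in IMQ-treated WT and 0.46 in IMQ-treated Bmal1 Mye-/-, and 0.21 over all groups without the 2 libraries farthest from the median of Nr1d1. Untreated Bmal1 Mye-/- replicate 3, one of these, had the lowest Nr1d1 and the highest Dbp of its group.

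**Figure D5:**
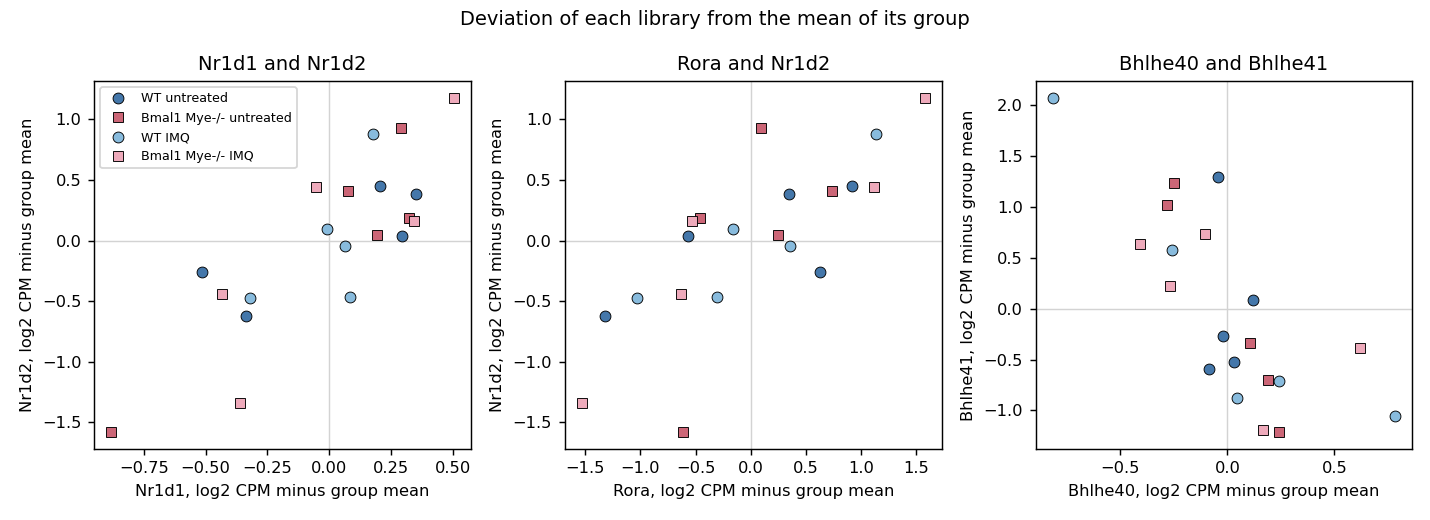
Deviation of each of the 20 libraries from the mean of its group, in log2 CPM, for the 3 pairs of genes with an adjusted p under 0.05. Nr1d2 increases with Nr1d1 (r = 0.82) and with Rora (r = 0.77), and Bhlhe41 decreases with Bhlhe40 (r = -0.77).

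Across all 20 libraries and 14030 genes, the closest patterns by Pearson correlation of log2 CPM, which here includes the differences between groups, were those of Fam171a1 for Nr1d1 (r = 0.94), Pcdhgc3 for Nr1d2 (0.88), Gata3 for Rora (0.89), Klhl17 for Dbp (0.93), Pkd2 for Tef (0.86), Pknox2 for Hlf (0.81), Mcl1 for Nfil3 (0.88), Sec63 for Bhlhe40 (0.88) and Fut1 for Bhlhe41 (0.95). None of the 9 genes had another of the 9 among its 3 nearest. Gata3 belongs to the T, NK and innate lymphoid list given above, and Gpx5 and Trim36 were about as near to Rora (r = 0.88 each). For Hlf, Id3 (r = 0.80) and Hmces (0.78) came next after Pknox2. These values describe libraries that share groups and depth, and carry no test.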

How the data were processed

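Poly(A) RNA libraries of 20 mice were assigned to groups from their labels. The authors deposited raw counts of reads per gene, 1 file per library with 24421 genes and 5 summary lines. The submitters' processing notes name bcl2fastq, STAR 2.7.8a, HTSeq 2.0.1 and mm10, whereas the methods of the study describe TopHat alignment of Read 1. Annotation and strand setting are not given in the sources used here, and neither is the sequencer of each library. A read shared by overlapping genes may therefore have been lost as ambiguous or given to either gene. Summary lines were left out of library sizes. Reads on no feature were 51.9% to 57.8% of a library, and 0.335% to 0.431% were ambiguous.

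The analysis used edgeR 4.0.16 in R 4.3.3. Genes were filtered by filterByExpr, scaled with TMM factors and fitted over all 20 libraries by the quasi-likelihood method. Adjusted p-values are Benjamini-Hochberg values over the 14030 genes tested, at a threshold of 0.05. Standard errors were computed from the F statistic. CPM and log2 fold changes include the TMM factors unless stated. Correlations used log2 CPM with TMM factors and a prior count of 2, and 100000 permutations. Pairs of libraries within groups (40) differed by 16.9 to 731 times what counting error gives (chi-square over its degrees of freedom). None was therefore the same library sequenced again. The check cannot tell a second library of the same mouse from a library of another mouse. Promoters came from RefSeq and exon lengths from GENCODE M21 on mm10.

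The 9 genes, the lists of clock genes and cell markers and the tests were chosen with earlier results of these data known. Named are all 9 genes, core clock genes past the threshold and Arntl, up to 4 genes past it from each other list, and the nearest patterns. One stem and progenitor marker is not reported here and was left out of its list. Same-numbered libraries of untreated and IMQ-treated Bmal1 Mye-/- mice deviated together (residual correlations over genes 0.128 to 0.426). This was taken as possible pairing and entered only the alternatives (a replicate block and a joint permutation), not the main fit. It comes from the data, as no label states it. Between untreated and IMQ-treated WT libraries the correlations were 0.073 to 0.384, and in the genotype contrasts they lay on both sides of 0. Libraries with different numbers were not compared, so pairing is not established in either genotype.

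Alternatives were DESeq2 1.42.0, RLE factors, library sizes alone, no filter, at least 10 counts in every library, limma 3.58.1 on log2(CPM + 0.1) as an analysis of variance, only the 2 groups compared, a replicate block and each library left out. A fit without the 2 libraries with most reads not uniquely aligned was added after seeing the data.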

Additional observations from a re-analysis of the deposited data

Results flagged for a closer look

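Each gene was examined in each group of 5 libraries for a value far from the rest, by the gap to its nearest neighbour over the range of the group. Of these 36 groups 4 passed Dixon's 95% critical value of 0.71, and chance alone marks about 1 in 20. Nr1d1 was lowest in untreated Bmal1 Mye-/- replicate 3, at 1.28 CPM against 2.51 to 2.99 in the other 4 libraries. Dbp was highest in this same library, at 3.00 CPM against 2.17 to 2.35. It was the shallowest library, with 38 and 89 counts for these genes. Bhlhe41 was highest in untreated WT replicate 3, at 2.5 CPM against 0.652 to 1.06, and in IMQ-treated WT replicate 5, at 0.855 CPM against 0.07 to 0.282.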

How the results depend on the processing

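The fall of Nr1d1, Dbp and Bhlhe41 averaged over genotype kept its direction and passed under every alternative that tested them (the filter of at least 10 counts in every library removed Bhlhe41). Hlf kept its direction and lost its call in 9 fits, with adjusted p from 0.0529 to 0.102, and the cause was not tested. In that contrast 3 to 5 of the 9 genes passed without one library. None of the 9 passed in any genotype contrast or in the interaction under any alternative. In IMQ-treated against untreated WT, 1 gene passed, 4 with DESeq2, 2 with the analysis of variance, 2 without the 2 libraries with most reads not uniquely aligned, and 0 to 2 without one library (0 without untreated WT replicate 2). In Bmal1 Mye-/-, 0 passed, 2 with DESeq2, 1 with RLE factors, 1 with at least 10 counts in every library, 2 without those 2 libraries, and 0 to 1 without one library. The replicate block gave 0 of 9 there (Dbp -0.56, adjusted p = 0.0659) and changed no call of the 9 genes in any contrast. This block gives same-numbered libraries of all 4 groups 1 shared term. It therefore does not test a pairing of the Bmal1 Mye-/- libraries alone. The block moved the count of all genes called for IMQ in WT from 554 to 190, and whether same-numbered WT libraries are paired is not known.

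None of the estimates that changed sign passed, and the cause was not tested. For IMQ against untreated in Bmal1 Mye-/-, Nr1d2 was -0.018 with DESeq2, -0.018 with RLE factors, -0.033 with the replicate block and -0.37 without the 2 libraries named above, and -0.38 to 0.28 without one library. For Bmal1 Mye-/- against WT under IMQ, Nfil3 was -0.0019 with DESeq2, -0.0019 with RLE factors and -0.028 without the 2 libraries (-0.096 to 0.11 without one library), where Bhlhe40 was 0.045 and Bhlhe41 -0.24 (Bhlhe41 -0.045 to 1.24 without one library). Averaged over treatment, Nr1d2 was -0.014 without the 2 libraries, and without one library Nr1d2 was -0.023 to 0.32 and Bhlhe41 -0.49 to 0.22. In untreated mice, without one library, Nr1d1 was -0.057 to 0.21 and Tef -0.24 to 0.093. In the interaction, Rora was 0.28 and Nfil3 0.042 with library sizes alone, Nfil3 was 0.034 with the analysis of variance, and without one library Rora was -0.59 to 0.44, Bhlhe40 -0.16 to 0.28 and Nr1d1 -0.0084 to 0.26. Library sizes alone moved the median of all genes to 0.23 under IMQ between genotypes, 0.11 averaged over treatment, 0.16 for IMQ in Bmal1 Mye-/- and 0.20 in the interaction.

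Of all genes, 29 passed between untreated genotypes (59 with only the 2 groups compared) and 41 between IMQ-treated genotypes (311 with DESeq2, 16 with only the 2 groups, 1259 without the 2 libraries and 20 to 3129 without one library, 3129 without IMQ-treated WT replicate 3 and 280 without IMQ-treated Bmal1 Mye-/- replicate 4). Averaged over treatment 44 passed (102 with DESeq2, 68 without the 2 libraries, 39 to 71 without one library). For IMQ in WT 554 passed (1480 with DESeq2, 326 without a filter, 186 with only the 2 groups, 899 without the 2 libraries, 48 without untreated WT replicate 2 to 1989 without IMQ-treated WT replicate 5), for IMQ in Bmal1 Mye-/- 3292 (1612 to 4499 without one library) and in the interaction 0 (0 to 1 without one library). The share of calls that were higher for IMQ in WT was 59.4%, and 49.5% with library sizes alone; between IMQ-treated genotypes it was 63.4%, and 74.5% with library sizes alone; averaged over treatment it was 50%, and 63.7% with DESeq2. Of the pairs of genes 3 passed, 5 without TMM factors, 3 with the joint permutation and 2 to 5 without one library. Whether the groups overlap also depends on the scaling, as given beside Dbp, Nr1d1 and Hlf. Depth limits Rora, Bhlhe41 and Nr1d2 most, with at least one library under 10 counts each.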

Other observations

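Nr1d2 and Tef had the next closest relation between mice after the 3 pairs reported, with r = 0.62 (rho = 0.69, permutation p = 0.00783 and 0.00204, adjusted 0.0705 and 0.0236), which passed by rho alone. Tef and its opponent Nfil3 were inversely related, with r = -0.62 (rho = -0.55, permutation p = 0.0111 and 0.021, adjusted 0.0803 and 0.126), negative in each of the 4 groups, and did not pass. Per3 had an IMQ log2 fold change of -0.65 ± 0.20 in WT (adjusted p = 0.0681) and 0.21 ± 0.20 in Bmal1 Mye-/- (adjusted p = 0.441), and the difference between the genotypes was 0.86 (adjusted p = 0.640), which fails the correction.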
